A study of Homo sapiens with 14 samples.

Results

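HepG2 cells grown on culture dishes in medium with 4% polyethylene glycol 300 (PEG) for 5 days were compared with HepG2 cells on dishes in isotonic medium. HepG2 is an established human liver tumour line, labelled hepatoblastoma with a wild-type genotype, and both groups share this line, the serum-supplemented medium and the dish. The series holds 14 libraries in 7 groups of 2, and 4 of the 14 belong to the comparison described here, 2 per medium. The other groups described below are HepG2 on transwells (inserts with a porous membrane), left uncompressed or placed under a weight. Fits of all 14 libraries also take in Hep3B, another cell line, on transwells, uncompressed, under a weight or in 3% PEG. These Hep3B libraries enter only the estimates of scale and spread in those fits. Of 56479 genes in the deposited table, 14116 reached 1 CPM (counts scaled to a common library total) in 2 of the 4 dish libraries and were tested. The labels name the libraries biological replicates without describing separate cultures, so p-values measure the spread between these samples, which may be technical. RNA was measured in bulk, so fewer cells of a kind and less RNA per cell cannot be told apart.

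PEG dissolves in the medium and raises its osmolarity, and water then leaves the cell and its volume falls. Cells answer a lasting osmotic load by taking up or making small organic osmolytes, by changing ion transport and by remodelling the cytoskeleton and the contacts with the matrix. Hepatocytes and hepatoblastoma cells also make most plasma proteins, and the genes for these are held on by a small set of liver transcription factors.

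Total counts were 35.4 M and 25.8 M for the isotonic libraries and 30.6 M and 28.2 M for the 4% PEG libraries. Replicates 1 and 2 of both groups stood apart along GC content: the difference of replicate 1 minus replicate 2 fell with the GC content of the transcript (Spearman correlation across genes -0.737 for isotonic medium and -0.751 for 4% PEG). The log2 fold change of 4% PEG against isotonic medium followed GC content with a Spearman correlation of 0.046 across genes, which are not independent replicates. The SD of the replicate difference over genes was 0.69 (log2) in isotonic medium and 0.61 in 4% PEG, against 1.53 for the fold change. Mitochondrially encoded genes held a larger share of counts in 4% PEG (7.34% and 5.05%) than in isotonic medium (1.87% and 0.999%), and the part of this share in the results below was not tested beyond a scaling without these genes. All 12 markers that define hepatocytes were detected, and their summed level was 118065 and 117188 CPM in isotonic medium and 31472 and 29616 CPM in 4% PEG. Of 11 fibroblast and stellate markers 9 were under the filter, with a highest level of 0.47 CPM, and COL1A2 had no count. Of 10 endothelial markers 5 were under it, and the summed level of all 10 was 12.8 and 16.4 CPM against 145 and 226 CPM. Of 12 immune markers 6 were under it, PTPRC, MS4A1 and FCGR3A had no count, and the summed level was 4253 and 3447 CPM against 544 and 483 CPM, most of it from LYZ.

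**Figure D1:**
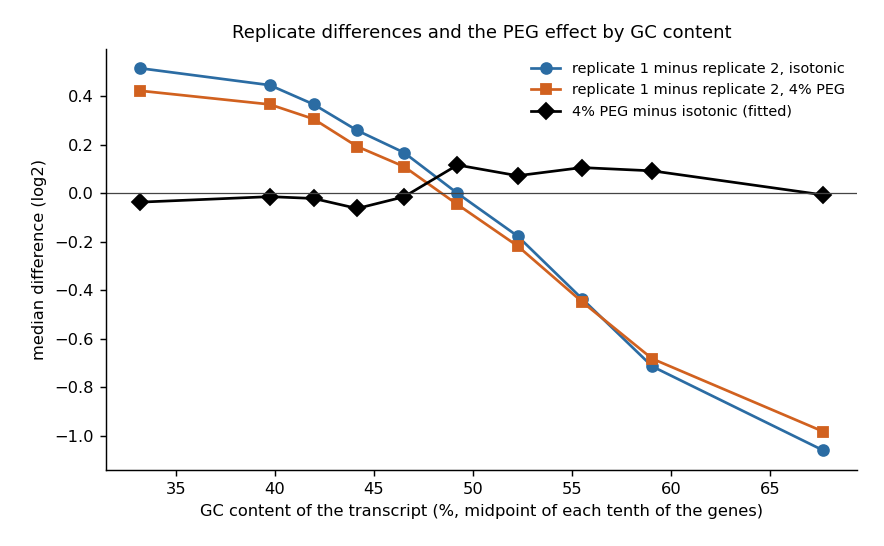
Median log2 difference (y axis) in 10 equal groups of the 14116 tested genes, ordered by the GC content of the transcript (x axis, %), for replicate 1 minus replicate 2 in each medium and for the fitted 4% PEG effect. The replicate differences run from 0.52 to -1.06 in isotonic medium and from 0.42 to -0.98 in 4% PEG, while the median 4% PEG effect stays between -0.06 and 0.12.

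In 4% PEG, 3227 of 14116 genes (22.9%) passed an adjusted p of 0.05 by edgeR (quasi-likelihood F-test, Benjamini-Hochberg adjustment), which gives every adjusted p below. Of these 1695 rose (12%) and 1532 fell (10.9%), and 3087 changed by at least 1 on the log2 scale. In each of the 3227 the ranges of the groups did not overlap. Over all genes tested, both 4% PEG libraries were above both isotonic libraries in 32.4% and below them in 30.1%. The median log2 fold change over all genes tested was 0.02. Scaling by library totals alone, without the trimmed-mean (TMM) factors, moved this median to 0.35 and the split to 2684 rises and 1006 falls. Offsets that remove each library's trend with GC content gave 3670 rises and 3509 falls. Beside a gene list, the counts with library totals, RLE size factors (the scaling of DESeq2) or GC offsets are given where the share of rises among its calls moves by over 10 percentage points, or, except with GC offsets, where the number of calls moves by over 1.5 times. Changes below are relative to the TMM scale. A value given with ± is the log2 fold change and an approximate standard error. That error is the size of the change divided by the square root of its F statistic.

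The largest rises, among genes with a mean of at least 5 CPM, were genes almost without counts in isotonic medium. NNMT (ENSG00000166741, chromosome 11, 114257787 to 114313285), which methylates nicotinamide, had no count in either isotonic library and stood at 14.6 and 17.7 CPM in 4% PEG. At 3 counts over the isotonic group this is at least 292-fold higher, and NNMT passed the test (adjusted p = 0.00184). ARHGEF4 (ENSG00000136002, chromosome 2, 130836916 to 131047263), a guanine nucleotide exchange factor, was at 0 and 0.0427 CPM in isotonic medium and 27.3 and 53.8 CPM in 4% PEG. The 2 isotonic libraries held 1 count of it (2176-fold higher in 4% PEG, exact 95% interval 390.2 to 85968, adjusted p = 0.00178). CDCP1 (ENSG00000163814, chromosome 3, 45082278 to 45146422), a membrane protein phosphorylated by SRC family kinases, was at 0 and 0.171 CPM in isotonic medium and 26.1 and 25.2 CPM in 4% PEG (8.32 ± 0.85, adjusted p = 0.00266). HSPB8 (ENSG00000152137, chromosome 12, 119178642 to 119221131), a small heat shock protein, was at 0.0974 and 0.128 CPM in isotonic medium and 15.9 and 26.7 CPM in 4% PEG (7.53 ± 0.58, adjusted p = 0.00173). The rule for the largest rises required both 4% PEG libraries to be above both isotonic ones, and in these genes the gap was wide.

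The other large rises include secreted, surface and membrane proteins. SBSN, a protein secreted by keratinised skin, was at 0 and 0.0854 CPM in isotonic medium and 20.2 and 19.01 CPM in 4% PEG (532-fold higher in 4% PEG, exact 95% interval 147 to 4401, adjusted p = 0.00193). MUC20, a membrane mucin, was at 0 and 0.0854 CPM in isotonic medium and 8.73 and 14.8 CPM in 4% PEG (316-fold higher in 4% PEG, exact 95% interval 87.1 to 2611, adjusted p = 0.00296). ATP6V0D2, a subunit of the proton pump that acidifies vesicles, was at 0.0649 and 0.0854 CPM in isotonic medium and 22.8 and 24.8 CPM in 4% PEG (8.25 ± 0.51, adjusted p = 0.00151). Replicates were close for SBSN and ATP6V0D2, while MUC20 was higher in replicate 2 than in replicate 1 of 4% PEG. PSG9, a pregnancy-specific glycoprotein, was at 0.0325 and 0 CPM in isotonic medium and 10.2 and 23.9 CPM in 4% PEG (911-fold higher in 4% PEG, exact 95% interval 163 to 36002, adjusted p = 0.00226), but it has near-identical relatives among which the counting could split reads. IGFN1 was at 0.162 and 0.0854 CPM in isotonic medium and 27.5 and 35.6 CPM in 4% PEG (7.901 ± 0.51, adjusted p = 0.00151). DRAIC, a long noncoding RNA, was at 0.0325 and 0.128 CPM in isotonic medium and 31.1 and 19.98 CPM in 4% PEG (8.34 ± 0.66, adjusted p = 0.00178). LAIR2, a soluble collagen-binding receptor, and SEL1L3 also belong to the 12 largest rises, with 8.83 and 8.78.

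The largest falls joined transporters and a liver enzyme to genes of cell division. SLC12A3 (ENSG00000070915, chromosome 16, 56865207 to 56915850), the thiazide-sensitive sodium chloride cotransporter, was at 13.7 and 15.8 CPM in isotonic medium and 0.0294 and 0 CPM in 4% PEG (962-fold lower in 4% PEG, exact 95% interval 172 to 38053, adjusted p = 0.00172). The 4% PEG libraries held 1 count of it in all. These intervals, like the bounds, reflect counting error alone. SLC6A14 (ENSG00000268104, chromosome X, 116436622 to 116461458), an importer of neutral and basic amino acids, was at 83.5 and 49.1 CPM in isotonic medium and 0.235 and 0.0944 CPM in 4% PEG (-8.602 ± 0.59, adjusted p = 0.00171). MYBL2 (ENSG00000101057, chromosome 20, 43667019 to 43716496), a transcription factor of mitotic genes, was at 34.2 and 68.1 CPM in isotonic medium and 0.265 and 0.126 CPM in 4% PEG (-7.99 ± 0.62, adjusted p = 0.00178). These 3 genes were close to absent in both 4% PEG libraries. The other 9 of the 12 are DLGAP5 (-7.96) and ASPM (-7.04), which act at the spindle, the mitotic kinase CDK1 (-7.75), the kinetochore gene NUF2 (-7.07), BIRC5 (-7.33), TOP2A (-7.499), the proliferation marker MKI67 (-7.03), DEPDC1 (-7.32) and ARG1 (-7.602), which splits arginine into urea and ornithine. Among the mitotic genes of this set, replicate 1 was above replicate 2 in both media, except for MYBL2 in isotonic medium.

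**Figure D2:**
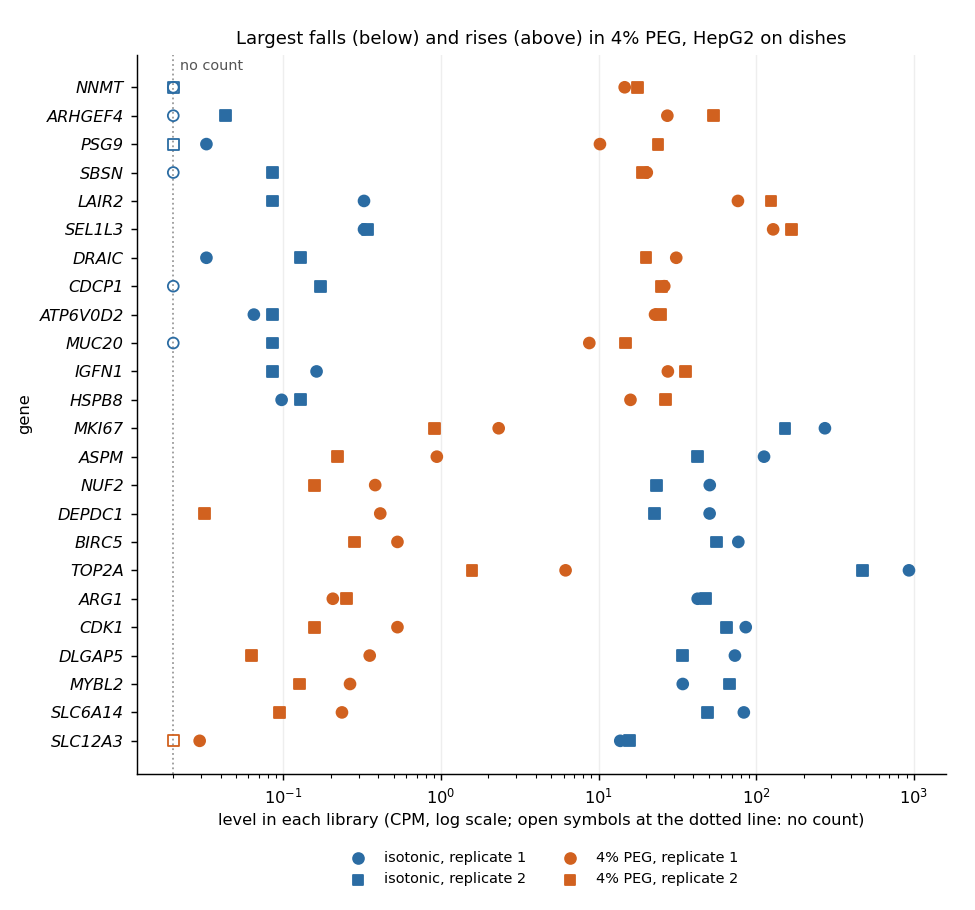
Level in CPM (x axis, log scale) of the 12 largest rises and 12 largest falls in each of the 4 libraries, with isotonic libraries in blue, 4% PEG libraries in orange, and open symbols at the dotted line for a library without a count. The rule that chose these genes required the 2 media to be separate. CDK1, for example, was at 85.9 and 65.1 CPM in isotonic medium and 0.529 and 0.157 CPM in 4% PEG.

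The promoters of these genes were read because many members moved together. RefSeq windows of 300 bases (GRCh38.p14, 250 before to 50 after the gene's start) matched 10079 of the tested genes by symbol. The letters TTTGAA, on either strand, are the core of the element bound by the MuvB complex in mitotic promoters. They stood in 9.77% of the 10079 windows, in 15.4% of all 27305 windows of the table, in 16.8% of windows of genes that fell and in 8.73% of those that rose. Among 127 windows of genes that fell by at least 4 on the log2 scale, 59 (46.5%) held them, and 30.7% held them within 50 bases of the start, against 2.85% of tested windows. The letters CCAAT on either strand, common in the same promoters, stood in 54.3% of these 127 windows and 36.9% of tested ones. Such a match is a description of letters, not a bound site. The median GC content of the windows was 61.7% for the 127 and 65.3% for all tested.

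CCNB2 (cyclin B2, a partner of CDK1; chr15:59104896-59105195, plus strand) was chosen by the rule for the named genes, while DEPDC1 (chr1:68497033-68497332, minus strand) and MKI67 (chr10:128126374-128126673, minus strand) were chosen after their values were seen, as windows with a match near the start. Capitals mark TTTGAA or its reverse complement, and each window is written along the gene's own strand.
CCNB2: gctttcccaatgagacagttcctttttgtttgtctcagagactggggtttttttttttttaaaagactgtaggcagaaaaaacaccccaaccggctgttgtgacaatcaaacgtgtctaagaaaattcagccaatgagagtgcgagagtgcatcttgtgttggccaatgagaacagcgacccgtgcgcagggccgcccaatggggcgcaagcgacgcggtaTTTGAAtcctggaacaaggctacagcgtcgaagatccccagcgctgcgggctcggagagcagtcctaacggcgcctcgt
DEPDC1: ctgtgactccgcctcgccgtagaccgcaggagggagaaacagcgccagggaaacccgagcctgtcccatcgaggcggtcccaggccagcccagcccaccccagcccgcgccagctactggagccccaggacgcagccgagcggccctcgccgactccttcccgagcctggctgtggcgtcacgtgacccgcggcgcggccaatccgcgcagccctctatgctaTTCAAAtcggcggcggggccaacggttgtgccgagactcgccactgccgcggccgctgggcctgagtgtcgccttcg
MKI67: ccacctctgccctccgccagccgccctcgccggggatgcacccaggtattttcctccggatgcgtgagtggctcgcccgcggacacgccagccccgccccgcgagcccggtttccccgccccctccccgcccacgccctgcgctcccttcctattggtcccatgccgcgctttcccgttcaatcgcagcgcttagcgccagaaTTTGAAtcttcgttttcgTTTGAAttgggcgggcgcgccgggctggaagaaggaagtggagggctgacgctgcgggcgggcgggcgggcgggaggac
CCNB2 was at 60.3 and 34.7 CPM in isotonic medium and 1.09 and 1.101 CPM in 4% PEG (-5.43 ± 0.44, adjusted p = 0.00184), and its match begins 29 bases before the start. In DEPDC1 it begins 27 bases before the start, and MKI67 has 2 matches, 47 and 29 bases before it. The rule also chose LIN54 (-1.36), BRIP1 (-3.94) and UBE2T (-2.14), whose windows are not printed. Their matches lie farther out and begin 100, 240 and 153 bases before the start.

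Genes that rose held another set of letters more often than the tested genes as a whole did. The letters TGANTCA, with N for any base, take in the form bound by AP-1 (FOS and JUN dimers), which has C or G at N. Matches with A or T at N were counted as well. On either strand, the letters stood in 4.52% of tested windows, 8.24% of windows of genes that rose, 3.96% of those that fell and 14.7% (28 of 190) of those that rose by at least 4. They stood in 7.76% of all 27305 windows, and the median GC content was 60.8% for the 190 windows, 65.3% for all tested and 58.3% for the whole table. SBSN (chr19:35528262-35528561, minus strand) was chosen by the rule and holds 2 matches, and LUCAT1 (chr5:91314353-91314652, minus strand), a long noncoding RNA, was chosen after its values were seen. Capitals mark TGANTCA.
SBSN: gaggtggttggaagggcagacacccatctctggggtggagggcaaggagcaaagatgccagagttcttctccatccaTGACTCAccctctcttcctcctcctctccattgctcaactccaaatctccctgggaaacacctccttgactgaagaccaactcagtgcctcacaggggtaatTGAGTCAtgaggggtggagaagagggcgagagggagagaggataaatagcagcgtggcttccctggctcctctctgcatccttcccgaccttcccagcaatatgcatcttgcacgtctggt
LUCAT1: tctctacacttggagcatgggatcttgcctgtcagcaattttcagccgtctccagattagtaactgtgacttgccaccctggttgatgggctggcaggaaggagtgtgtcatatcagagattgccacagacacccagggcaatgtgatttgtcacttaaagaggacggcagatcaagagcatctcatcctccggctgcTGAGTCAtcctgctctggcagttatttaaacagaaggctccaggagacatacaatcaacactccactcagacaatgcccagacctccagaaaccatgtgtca
LUCAT1 was at 0.357 and 0.0854 CPM in isotonic medium and 11.6 and 10.6 CPM in 4% PEG (5.56 ± 0.64, adjusted p = 0.00338).

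A strict rule for genes that appeared or vanished took those under 0.5 CPM in both libraries of one medium and at least 10 CPM in both of the other. It found 30 genes that appeared in 4% PEG, 26 of them protein coding, and 23 that vanished, all 23 protein coding. All of them passed the test. MCTP1, a membrane protein with calcium-binding domains, was among those that appeared, at 0.292 and 0.0854 CPM in isotonic medium and 31.7 and 30.4 CPM in 4% PEG (7.26 ± 0.57, adjusted p = 0.00178). LIPH, a lipase that makes lysophosphatidic acid, was at 0.357 and 0.427 CPM in isotonic medium and 36.99 and 52.6 CPM in 4% PEG (6.83 ± 0.44, adjusted p = 0.00151). RBPMS2, an RNA-binding protein, was at 0.357 and 0.256 CPM in isotonic medium and 22.7 and 27.3 CPM in 4% PEG (6.31 ± 0.45, adjusted p = 0.00171). Among those that vanished was SCN1A, a voltage-gated sodium channel subunit, at 38.6 and 24.7 CPM in isotonic medium and 0.323 and 0.409 CPM in 4% PEG (-6.42 ± 0.48, adjusted p = 0.00172). TNNI2, a troponin subunit of fast muscle, was at 20.1 and 49.00 CPM in isotonic medium and 0.441 and 0.409 CPM in 4% PEG (-6.33 ± 0.61, adjusted p = 0.00226) and differed more between the isotonic replicates than SCN1A did. PBK (-6.78), a mitotic kinase, and UBE2C (-6.97), a ubiquitin-conjugating enzyme of mitotic exit, vanished too.

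Gene groups were described by lists, read against the 12% of all tested genes that rose, the 10.9% that fell and the median of 0.02. Across the 10 groups of genes by GC content, rises ran from 7.51% to 16.2% and falls from 6.66% to 13.4%. The shares for the lists were not matched for GC content. Of the cyclins, CDK inhibitors and pocket proteins, 5 of 31 tested members rose and 14 fell (median log2 fold change -0.85). FOXM1, a transcription factor of mitotic genes, was at 33.2 and 37.1 CPM in isotonic medium and 0.647 and 0.913 CPM in 4% PEG (-5.49 ± 0.40, adjusted p = 0.00171). CDKN2B, an inhibitor of CDK4 and CDK6, was at 1.88 and 1.28 CPM in isotonic medium and 59.05 and 46.9 CPM in 4% PEG (5.05 ± 0.39, adjusted p = 0.00173), so the list held both large falls and a large rise. Of the homologous recombination and Fanconi anaemia genes, 0 of 30 tested members rose and 18 fell (median log2 fold change -1.99). FANCI, which with FANCD2 is loaded at stalled forks, was at 36.2 and 38.4 CPM in isotonic medium and 3.65 and 3.43 CPM in 4% PEG (-3.396 ± 0.32, adjusted p = 0.00216). FANCD2 (-3.33), the nuclease EXO1 (-4.62) and XRCC2 (-3.99), a helper of strand exchange, fell as well. Of the 25 windows of genes that fell in these lists, 10 (40%) held GCGGGAA, a form of the E2F site, on either strand, against 10.4% of tested windows, 11.98% of all that fell and 13.4% of those that fell by at least 4. TTTGAA stood in 4 of these 25 windows (16%). Windows of list members that did not fall were not counted, so whether either share goes with the fall was not tested. Of the p53 target genes, 8 of 32 tested members rose and 1 fell (median log2 fold change 0.16, while 13 rose and 8 fell with GC offsets). CDKN1A (p21) was at 33.3 and 40.8 CPM in isotonic medium and 137 and 253 CPM in 4% PEG (2.39 ± 0.36, adjusted p = 0.00678), and FAS, PLK3 and DDB2 changed by 2.61, 2.88 and -2.09. Only 13 of 54 replication-dependent histone genes reached the filter, and of these 2 rose and none fell, or 3 rose and 1 fell with GC offsets. H2BC4 (2.24) and H4C8 (2.33) rose, and near-identical copies make single histone values uncertain.

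Chromatin genes fell more often than they rose. Of the chromatin and DNA methylation enzymes, 1 of 37 tested members rose and 10 fell (median log2 fold change -0.78, while 1 rose and 6 fell with library totals). TET1, which oxidises methylcytosine, was at 161 and 148 CPM in isotonic medium and 11.3 and 5.92 CPM in 4% PEG (-4.16 ± 0.39, adjusted p = 0.00217). UHRF1, which guides maintenance methylation, was at 16.98 and 19.7 CPM in isotonic medium and 1.44 and 0.944 CPM in 4% PEG (-3.93 ± 0.42, adjusted p = 0.00287). The DNA-bending proteins HMGB2 and HMGA2 changed by -3.39 and -3.23. Both 4% PEG libraries were below both isotonic ones in all 4 genes, as the groups were separate in every gene that passed.

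Lists for making and breaking down protein differed in their counts. Of the nucleolar ribosome assembly genes, 0 of 38 tested members rose and 4 fell (median log2 fold change -0.15, while 0 rose and 1 fell with library totals), and FBL (fibrillarin, which methylates ribosomal RNA) was at 128 and 146 CPM in isotonic medium and 28.1 and 27.9 CPM in 4% PEG (-2.296 ± 0.25, adjusted p = 0.00289). Of the translation factors, 1 of 42 tested members rose and 12 fell (median log2 fold change -0.14, while 5 rose and 5 fell with library totals and 7 rose and 16 fell with GC offsets). EEF1B2 and EIF4B changed by -1.59 and -1.53, while EIF5, which triggers GTP hydrolysis at the start codon, was at 145 and 99.8 CPM in isotonic medium and 538 and 405 CPM in 4% PEG (1.95 ± 0.30, adjusted p = 0.007). Of the cytosolic aminoacyl-tRNA synthetases, 5 of 23 tested members rose and 1 fell (median log2 fold change 0.23, while 6 rose and 0 fell with library totals and 8 rose and 4 fell with GC offsets), and WARS1 rose by 1.64. Of the mitochondrial ribosomal proteins, 1 of 39 tested members rose and 2 fell (median log2 fold change -0.39, while 1 rose and 16 fell with GC offsets). MRPS10 was at 47.9 and 41.3 CPM in isotonic medium and 127 and 114 CPM in 4% PEG (1.44 ± 0.25, adjusted p = 0.0101), while MRPS27 changed by -1.35. Of the proteasome subunits, 1 of 31 tested members rose and 0 fell (median log2 fold change 0.27, while 6 rose and 0 fell with library totals and 9 rose and 2 fell with GC offsets), and PSMD2, a base subunit of the cap, was at 119 and 154 CPM in isotonic medium and 407 and 516 CPM in 4% PEG (1.76 ± 0.27, adjusted p = 0.00681). Of the splicing factors, 0 of 41 tested members rose and 6 fell (median log2 fold change -0.40, while 5 rose and 2 fell with library totals and 5 rose and 19 fell with GC offsets). HNRNPA1 (-1.79) and SF3B3 (-1.397) fell on the TMM scale. Of 1036 processed pseudogenes tested, 168 fell and 29 rose (median -0.68), and of the 257 whose parents are ribosomal protein genes 98 fell and 1 rose (median -1.42). Reads of a processed pseudogene and of its parent cannot be fully told apart.

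Among liver transcription factors, falls outnumbered rises. Of the liver transcription factors, 2 of 33 tested members rose and 12 fell (median log2 fold change -0.72, while 2 rose and 6 fell with library totals). ONECUT1 (ENSG00000169856, chromosome 15, 52756989 to 52791078), which acts early in liver development, was at 22.95 and 21.6 CPM in isotonic medium and 1.26 and 0.913 CPM in 4% PEG (-4.35 ± 0.40, adjusted p = 0.00198). NR1H4, the bile acid receptor FXR, was at 27.1 and 34.6 CPM in isotonic medium and 2.44 and 2.42 CPM in 4% PEG (-3.66 ± 0.36, adjusted p = 0.00217), and NR2F1 changed by -3.07. NR1I2 (PXR, the receptor that senses foreign compounds) went the other way, at 4.16 and 6.02 CPM in isotonic medium and 51.6 and 61.2 CPM in 4% PEG (3.47 ± 0.35, adjusted p = 0.00247). HNF4A, the central factor of hepatocyte identity, was at 207 and 294 CPM in isotonic medium and 251 and 293 CPM in 4% PEG and did not pass (0.12 ± 0.27, adjusted p = 0.786). The 4% PEG libraries overlapped the isotonic ones.

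Secreted liver proteins fell more often than they rose. Of the coagulation and fibrinolysis factors, 1 of 24 tested members rose and 12 fell (median log2 fold change -1.52). F13B, the carrier subunit of factor XIII, was at 7.82 and 9.14 CPM in isotonic medium and 0.0294 and 0.0315 CPM in 4% PEG (276-fold lower in 4% PEG, exact 95% interval 75.98 to 2286, adjusted p = 0.00172). PLG (plasminogen) was at 111 and 128 CPM in isotonic medium and 14.1 and 11.5 CPM in 4% PEG (-3.22 ± 0.28, adjusted p = 0.00184), and F11 and SERPINA5 changed by -3.34 and -2.83. Of the complement proteins and regulators, 3 of 23 tested members rose and 10 fell (median log2 fold change -0.71). C5, the source of the terminal complex, was at 876 and 683 CPM in isotonic medium and 51.1 and 47.02 CPM in 4% PEG (-3.99 ± 0.28, adjusted p = 0.00171). C8A (-3.999), C8B (-4.12) and the lectin MBL2 (-3.59) fell too. Of the apolipoproteins and lipoprotein assembly genes, 2 of 28 tested members rose and 8 fell (median log2 fold change -0.61, while 3 rose and 6 fell with library totals). APOH was at 3123 and 3039 CPM in isotonic medium and 397 and 309 CPM in 4% PEG (-3.13 ± 0.27, adjusted p = 0.00184), and MTTP, which loads lipid onto apolipoprotein B, at 582 and 559.6 CPM in isotonic medium and 239 and 203 CPM in 4% PEG (-1.37 ± 0.23, adjusted p = 0.0096). APOB (-0.75 ± 0.32, adjusted p = 0.143) and APOA2 (0.39 ± 0.30, adjusted p = 0.396) did not pass. Of the hepatocyte markers, 6 of 12 fell and none rose. AHSG (fetuin A) was at 7000.4 and 11804 CPM in isotonic medium and 327 and 428 CPM in 4% PEG (-4.64 ± 0.39, adjusted p = 0.00184), while SERPINA1 (alpha-1 antitrypsin) was at 10405 and 11935 CPM in isotonic medium and 7609 and 7616 CPM in 4% PEG (-0.55 ± 0.25, adjusted p = 0.16).

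Enzymes of bile acid, drug and nitrogen metabolism split. Of the drug-metabolising enzymes, 8 of 27 tested members rose and 7 fell (median log2 fold change 0.91). UGT1A1, which conjugates bilirubin, was at 2.08 and 3.84 CPM in isotonic medium and 103 and 143 CPM in 4% PEG (5.38 ± 0.43, adjusted p = 0.00182), and its last exons are shared by the other genes of its cluster. CYP24A1, which breaks down vitamin D, was at 5.39 and 2.78 CPM in isotonic medium and 85.7 and 73.2 CPM in 4% PEG (4.27 ± 0.42, adjusted p = 0.00241). SULT2A1, a sulfotransferase for steroids and bile acids, was at 464 and 417 CPM in isotonic medium and 33.4 and 25.7 CPM in 4% PEG (-3.898 ± 0.28, adjusted p = 0.00171), and UGT2B4 changed by -3.83. Of the bile acid genes, 4 of 19 tested members rose and 4 fell (median log2 fold change -0.16). KLB, the co-receptor for FGF19, was at 244 and 204 CPM in isotonic medium and 16.8 and 16.6 CPM in 4% PEG (-3.74 ± 0.26, adjusted p = 0.00171), and SLC51B, a bile acid exporter subunit, at 2.73 and 2.905 CPM in isotonic medium and 18.00 and 18.7 CPM in 4% PEG (2.703 ± 0.35, adjusted p = 0.00423). Of the urea cycle and amino acid breakdown genes, 4 of 29 tested members rose and 8 fell (median log2 fold change -0.46, while 6 rose and 6 fell with library totals). HAL, which breaks down histidine, was at 91.4 and 187 CPM in isotonic medium and 6.23 and 8.65 CPM in 4% PEG (-4.23 ± 0.45, adjusted p = 0.00287), and GLUD1 and CPS1 changed by -2.37 and -1.45.

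Fetal liver genes fell more often than they rose. Of the fetal liver and progenitor genes, 3 of 21 tested members rose and 7 fell (median log2 fold change -0.75). IGF2, a fetal growth factor, was at 11865 and 14718 CPM in isotonic medium and 739 and 858 CPM in 4% PEG (-4.06 ± 0.30, adjusted p = 0.00171). PEG10, an imprinted gene of retrotransposon origin, was at 6749.6 and 5171 CPM in isotonic medium and 487 and 309.9 CPM in 4% PEG (-3.904 ± 0.35, adjusted p = 0.00199). SOX4, a transcription factor of progenitor cells, was at 11.3 and 11.02 CPM in isotonic medium and 123 and 84.8 CPM in 4% PEG (3.22 ± 0.31, adjusted p = 0.00223). Of the growth factors and their binding proteins, 5 of 28 tested members rose and 7 fell (median log2 fold change 0.28, while 7 rose and 5 fell with library totals and 12 rose and 10 fell with GC offsets), and the list shares IGF2 with the former. GPC3, a heparan sulfate proteoglycan of liver tumours, was at 5562 and 5373 CPM in isotonic medium and 1509.7 and 1593 CPM in 4% PEG (-1.82 ± 0.24, adjusted p = 0.00459). LIF, a cytokine of the interleukin 6 family, was at 4.25 and 6.45 CPM in isotonic medium and 32.9 and 37.5 CPM in 4% PEG (2.72 ± 0.36, adjusted p = 0.00461), and FGFR2 changed by -4.42.

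Integrins and membrane-binding proteins rose more often than they fell. Of the integrins and their adaptors, 14 of 29 tested members rose and 2 fell (median log2 fold change 1.003). ITGA3 (ENSG00000005884, chromosome 17, 50055968 to 50090481), a laminin receptor subunit, was at 0.357 and 0.513 CPM in isotonic medium and 46.3 and 101 CPM in 4% PEG (7.41 ± 0.59, adjusted p = 0.00178). ITGA5, a fibronectin receptor subunit, was at 0.195 and 0.171 CPM in isotonic medium and 9.12 and 21.1 CPM in 4% PEG (6.33 ± 0.66, adjusted p = 0.00275). In both, replicate 2 of 4% PEG was above replicate 1. ITGA2, a collagen receptor subunit, was already high in isotonic medium, at 505 and 344 CPM in isotonic medium and 2561 and 2199 CPM in 4% PEG (2.49 ± 0.30, adjusted p = 0.00365). ITGB2, the beta subunit of leukocyte integrins, went the other way, at 33.7 and 67.5 CPM in isotonic medium and 2.26 and 3.21 CPM in 4% PEG (-4.21 ± 0.48, adjusted p = 0.00323). Of the annexins, S100 proteins and membrane repair genes, 15 of 25 tested members rose and 1 fell (median log2 fold change 1.17). AHNAK2, a very large scaffold protein, was at 0.584 and 0.384 CPM in isotonic medium and 52.9 and 61.3 CPM in 4% PEG (6.85 ± 0.41, adjusted p = 0.00151). S100A11, a calcium-binding protein, was at 3.83 and 4.57 CPM in isotonic medium and 206 and 243 CPM in 4% PEG (5.74 ± 0.30, adjusted p = 0.00151). MYOF (myoferlin, which acts in membrane fusion and repair) was at 0.812 and 0.683 CPM in isotonic medium and 36.2 and 24.8 CPM in 4% PEG (5.34 ± 0.43, adjusted p = 0.00178), and ANXA3 changed by 3.96.

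Filament, junction and matrix genes moved both ways. Of the keratins and other intermediate filaments, 6 of 19 tested members rose and 3 fell (median log2 fold change 0.54, while 7 rose and 2 fell with library totals and 11 rose and 3 fell with GC offsets). KRT19, a keratin of bile ducts and progenitors, was at 22.7 and 46.8 CPM in isotonic medium and 431 and 579 CPM in 4% PEG (3.86 ± 0.43, adjusted p = 0.00305). NES (nestin) was at 23.9 and 27.2 CPM in isotonic medium and 209.6 and 230.1 CPM in 4% PEG (3.11 ± 0.25, adjusted p = 0.00178), KRT15 changed by 4.88 and LMNB1, a lamina protein, by -3.63. Of the junction genes, 4 of 30 tested members rose and 2 fell (median log2 fold change -0.09, while 7 rose and 2 fell with library totals and 9 rose and 9 fell with GC offsets). CLDN2, a claudin that forms a cation pore, was at 0.584 and 0.641 CPM in isotonic medium and 7.499 and 7.805 CPM in 4% PEG (3.64 ± 0.43, adjusted p = 0.00334), while CLDN1, a sealing claudin, was at 126 and 98.5 CPM in isotonic medium and 33.3 and 28.5 CPM in 4% PEG (-1.86 ± 0.27, adjusted p = 0.00582). CLDN14 changed by -3.13 and NECTIN1 by 2.67. Of the matrix proteins, 6 of 24 tested members rose and 6 fell (median log2 fold change -0.07, while 7 rose and 4 fell with library totals). FN1 (fibronectin), which links cells to collagen, was at 30645 and 24522 CPM in isotonic medium and 8659 and 8067 CPM in 4% PEG (-1.72 ± 0.27, adjusted p = 0.00737). COL4A5 (-2.91) and NID1 (-1.88), parts of the basement membrane, fell, and LTBP1 (3.89), which holds latent TGF-beta, rose.

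Members of several signalling lists were followed. Of the EGF receptor family and ligands, 4 of 15 tested members rose and 2 fell (median log2 fold change 0.27, while 6 rose and 1 fell with library totals and 6 rose and 7 fell with GC offsets). EGFR (ENSG00000146648, chromosome 7, 55019021 to 55211628) was at 68.98 and 51.9 CPM in isotonic medium and 339 and 372 CPM in 4% PEG (2.55 ± 0.26, adjusted p = 0.00258). AREG, one of its ligands, was at 5.94 and 4.19 CPM in isotonic medium and 125 and 70.9 CPM in 4% PEG (4.27 ± 0.42, adjusted p = 0.00235), and the ligand EREG changed by 4.104 from levels under 0.5 CPM. NRG1, a ligand of the related receptors ERBB3 and ERBB4, was 19.2-fold higher in 4% PEG, exact 95% interval 6.32 to 95.5, adjusted p = 0.00468. Of the ERK feedback genes, 8 of 28 tested members rose and 3 fell (median log2 fold change 0.03, while 10 rose and 1 fell with library totals and 10 rose and 6 fell with GC offsets). DUSP5, a nuclear phosphatase of ERK, was at 4.06 and 4.66 CPM in isotonic medium and 257 and 433 CPM in 4% PEG (6.31 ± 0.39, adjusted p = 0.00151). SPRY4 was at 63.4 and 62.7 CPM in isotonic medium and 370.3 and 416 CPM in 4% PEG (2.64 ± 0.24, adjusted p = 0.00191), while its relative SPRY1 was at 63.6 and 57.5 CPM in isotonic medium and 12.8 and 10.3 CPM in 4% PEG (-2.39 ± 0.30, adjusted p = 0.00378), and SPRED3 changed by 5.42. In EGFR, AREG, DUSP5 and SPRY4 both 4% PEG libraries were above both isotonic ones, as the groups were separate in every gene that passed.

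Of the YAP and TEAD targets, 8 of 22 tested members rose and 3 fell (median log2 fold change 0.43). ANKRD1 was at 33.1 and 20.97 CPM in isotonic medium and 214 and 182 CPM in 4% PEG (2.87 ± 0.32, adjusted p = 0.00306) and AXL, a receptor kinase, at 12.3 and 14.3 CPM in isotonic medium and 89.2 and 128 CPM in 4% PEG (3.03 ± 0.31, adjusted p = 0.00265). CCN2, a matricellular protein often used as a YAP reporter, went the other way, at 2247 and 1541 CPM in isotonic medium and 311 and 253 CPM in 4% PEG (-2.75 ± 0.30, adjusted p = 0.00305). Of the TGF-beta and BMP pathway, 4 of 30 tested members rose and 6 fell (median log2 fold change -0.08, while 6 rose and 4 fell with library totals). The receptor ACVR1 was at 18.4 and 18.2 CPM in isotonic medium and 74.4 and 75.6 CPM in 4% PEG (2.03 ± 0.26, adjusted p = 0.00418), the ligand BMP4 at 149 and 125 CPM in isotonic medium and 33.9 and 32.6 CPM in 4% PEG (-2.04 ± 0.25, adjusted p = 0.00378), and the co-receptor TGFBR3 changed by -2.55. Of the Wnt and beta-catenin genes, 6 of 27 tested members rose and 6 fell (median log2 fold change -0.09, while 7 rose and 3 fell with library totals and 7 rose and 11 fell with GC offsets). WNT7B (5.31) and TCF7 (2.22) rose, and the receptor FZD4 (-1.65) and the inhibitor DKK1 (-2.28) fell. Of the Notch and Hedgehog genes, 3 of 19 tested members rose and 2 fell (median log2 fold change 0.04, while 4 rose and 7 fell with GC offsets). JAG1, a Notch ligand, was at 269 and 208 CPM in isotonic medium and 648 and 618 CPM in 4% PEG (1.41 ± 0.25, adjusted p = 0.0106), and MAML2, a coactivator, changed by -2.43.

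Of the NF-kB targets and chemokines, 5 of 21 tested members rose and 3 fell (median log2 fold change -0.23, while 6 rose and 7 fell with GC offsets). BCL2A1, a survival protein of the BCL2 family, was at 0.0325 and 0.0427 CPM in isotonic medium and 7.97 and 5.44 CPM in 4% PEG (183-fold higher in 4% PEG, exact 95% interval 50.4 to 1515, adjusted p = 0.00184). CCL20, a chemokine, was at 677 and 626 CPM in isotonic medium and 55.3 and 37.7 CPM in 4% PEG (-3.81 ± 0.30, adjusted p = 0.00178), and TNFAIP3 (A20, which brakes NF-kB) at 136 and 134 CPM in isotonic medium and 15.6 and 19.7 CPM in 4% PEG (-2.93 ± 0.27, adjusted p = 0.00198). Of the interferon response genes, 5 of 29 tested members rose and 1 fell (median log2 fold change 0.46, while 5 rose and 2 fell with RLE size factors, 10 rose and 1 fell with library totals and 12 rose and 7 fell with GC offsets). OAS1, a sensor of double-stranded RNA, was at 7.304 and 8.24 CPM in isotonic medium and 101 and 145 CPM in 4% PEG (3.98 ± 0.32, adjusted p = 0.00181), and PARP14 and SP100 changed by 2.61 and 1.701. Of the antigen presentation genes, 0 of 20 tested members rose and 3 fell (median log2 fold change -0.28, while 1 rose and 2 fell with library totals and 1 rose and 6 fell with GC offsets), and ERAP1, which trims peptides, changed by -1.64.

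Members of the mixed list for osmolyte uptake and NFAT5 rose more often than they fell, with exceptions. Of the osmolyte uptake and NFAT5 targets, 11 of 29 tested members rose and 2 fell (median log2 fold change 0.95, while 16 rose and 6 fell with GC offsets). The members given next were chosen by smallest p, so they do not show how the importers of organic osmolytes on this list changed. AQP3, a channel for water and glycerol, was at 7.27 and 6.41 CPM in isotonic medium and 84.5 and 136 CPM in 4% PEG (4.01 ± 0.36, adjusted p = 0.00193). GPD1, which makes glycerol 3-phosphate, was at 2.47 and 4.699 CPM in isotonic medium and 30.8 and 41.8 CPM in 4% PEG (3.34 ± 0.44, adjusted p = 0.00466). SLC7A11, the cystine importer, was at 56.2 and 26.9 CPM in isotonic medium and 336 and 338 CPM in 4% PEG (3.02 ± 0.39, adjusted p = 0.00448), and SGK1, a kinase that many cells raise on acute shrinkage, was at 90.8 and 88.9 CPM in isotonic medium and 6.26 and 4.09 CPM in 4% PEG (-4.12 ± 0.34, adjusted p = 0.00184). Of the ion pumps, channels and cotransporters, 5 of 31 tested members rose and 2 fell (median log2 fold change 0.57, while 10 rose and 2 fell with library totals). SLC9A2, a sodium proton exchanger, had no count in isotonic medium and 5.73 and 5.004 CPM in 4% PEG, at least 97.02-fold higher at 3 counts over the isotonic group (adjusted p = 0.00257). The potassium channel KCNK6 (4.33) rose from levels under 0.5 CPM, and the calcium-activated channel KCNN4 was 122-fold higher in 4% PEG, exact 95% interval 21.6 to 4849.8, adjusted p = 0.00621. Of the amino acid and glucose transporters, 5 of 32 tested members rose and 10 fell (median log2 fold change -0.31, while 7 rose and 7 fell with library totals). SLC7A2 was at 826 and 709 CPM in isotonic medium and 175 and 167 CPM in 4% PEG (-2.17 ± 0.24, adjusted p = 0.00297), SLC1A2 changed by -1.86 and SLC38A4 by -3.13.

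Metal, lipid and vesicle genes completed the lists. Of the iron, copper and metallothionein genes, 11 of 34 tested members rose and 9 fell (median log2 fold change 0.55). The metallothionein MT1E, which binds zinc and copper, was at 14.5 and 20.03 CPM in isotonic medium and 128 and 128 CPM in 4% PEG (2.89 ± 0.29, adjusted p = 0.00235), and MT1X was at 5.36 and 6.79 CPM in isotonic medium and 41.9 and 44.5 CPM in 4% PEG (2.83 ± 0.32, adjusted p = 0.00306). Metallothioneins are near-identical, so reads may be split among them. FTL, the ferritin light chain that stores iron, was at 1194 and 2414 CPM in isotonic medium and 4468 and 7305 CPM in 4% PEG (1.71 ± 0.43, adjusted p = 0.0347), while TFRC, the receptor that imports it, was at 1949 and 1665 CPM in isotonic medium and 473 and 371 CPM in 4% PEG (-2.097 ± 0.27, adjusted p = 0.00395). TF (transferrin) and CP (ceruloplasmin), the plasma carriers of iron and copper, changed by -3.08 and -4.42. Of the fatty acid and triglyceride genes, 6 of 34 tested members rose and 5 fell (median log2 fold change -0.07, while 9 rose and 13 fell with GC offsets). PLIN2, which coats lipid droplets, was at 1061 and 1531 CPM in isotonic medium and 141 and 153 CPM in 4% PEG (-3.14 ± 0.29, adjusted p = 0.00216), and ACSL1, which activates fatty acids, at 32.98 and 36.4 CPM in isotonic medium and 217 and 220.2 CPM in 4% PEG (2.66 ± 0.24, adjusted p = 0.00193). GPAM (-2.83) and FADS1 (-1.903) fell. Of the endosome and ESCRT genes, 7 of 41 tested members rose and 1 fell (median log2 fold change 0.45, while 13 rose and 1 fell with library totals). RAB31 was at 2.95 and 1.15 CPM in isotonic medium and 43.3 and 34.99 CPM in 4% PEG (4.24 ± 0.53, adjusted p = 0.00395), and CLTB (a clathrin light chain) and CHMP4C changed by 2.57 and 1.96. Of the Golgi and coat genes, 0 of 38 tested members rose and 2 fell (median log2 fold change 0.01, while 1 rose and 0 fell with library totals and 1 rose and 6 fell with GC offsets).

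Of the long noncoding RNAs, 5 of 24 tested members rose and 9 fell (median log2 fold change -0.78, while 5 rose and 5 fell with library totals). MALAT1, a nuclear RNA, was at 203 and 149 CPM in isotonic medium and 879 and 1063 CPM in 4% PEG (2.46 ± 0.28, adjusted p = 0.00318). SNHG7, a snoRNA host, was at 24.6 and 34.6 CPM in isotonic medium and 4.59 and 6.01 CPM in 4% PEG (-2.48 ± 0.37, adjusted p = 0.00612), and UCA1 changed by 3.63. Of the genes commonly used as references, 0 of 17 tested members rose and 5 fell (median log2 fold change -0.41, while 1 rose and 2 fell with library totals and 1 rose and 8 fell with GC offsets). PGK1, a glycolytic enzyme among them, was at 1661 and 1748 CPM in isotonic medium and 559 and 570.3 CPM in 4% PEG (-1.59 ± 0.23, adjusted p = 0.00592), and TFRC is another.

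**Figure D3:**
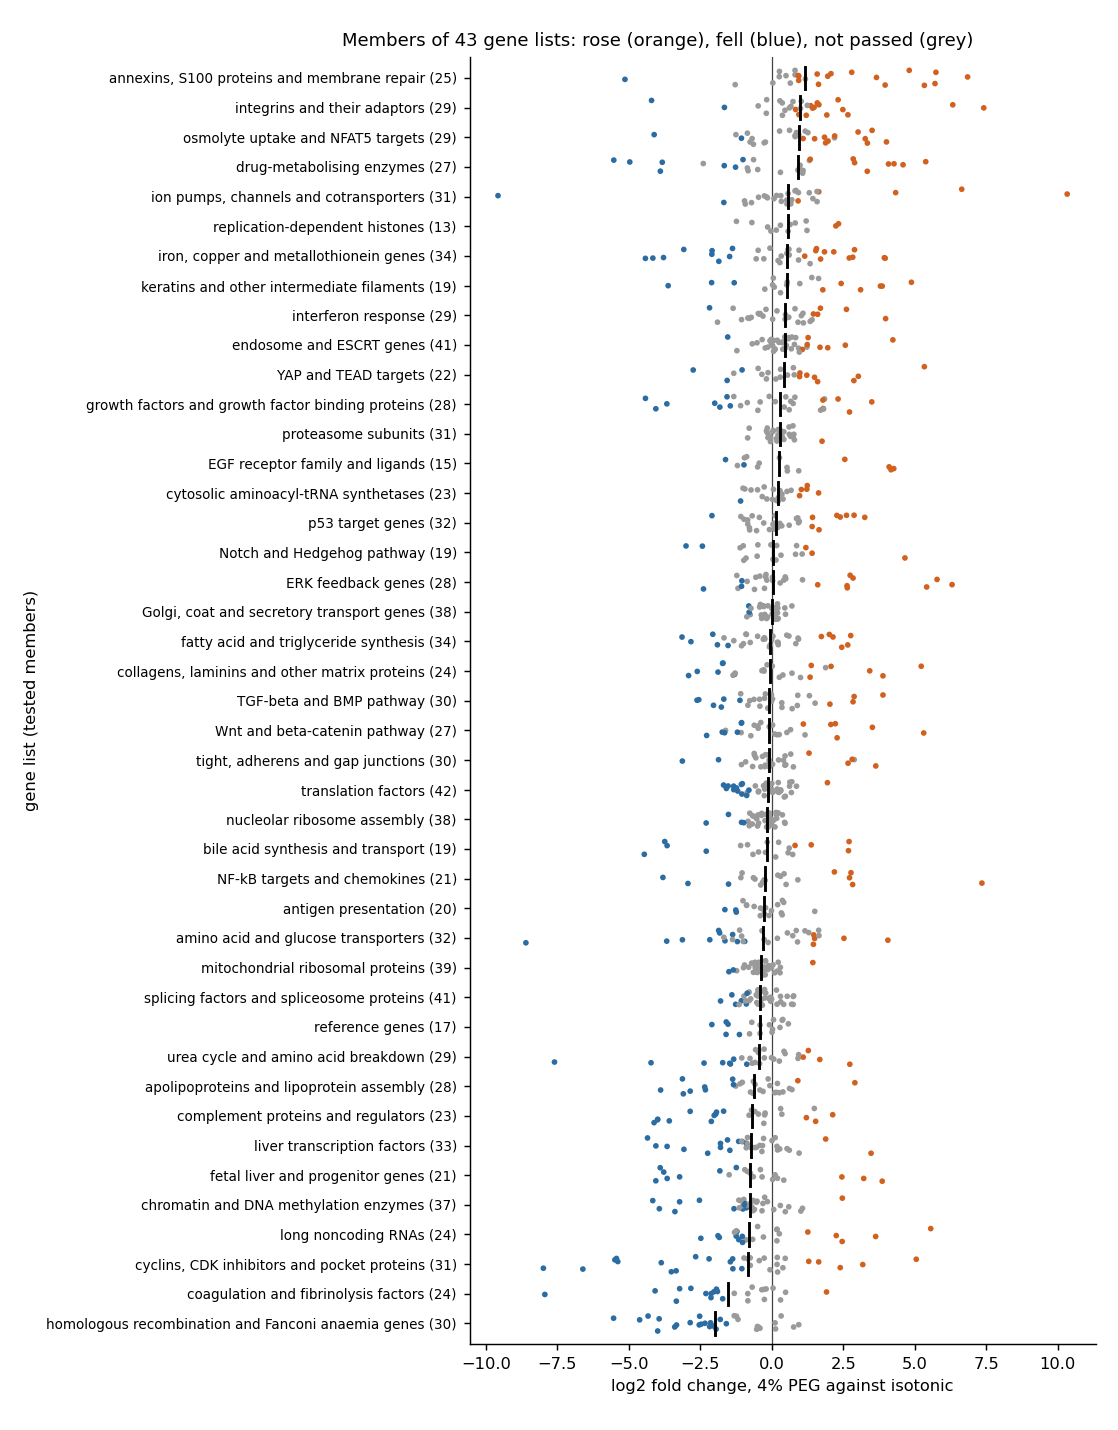
Log2 fold change in 4% PEG against isotonic medium (x axis) of each tested member of 43 gene lists, with the number of tested members in parentheses, ordered by the list median (black bar). The medians run from -1.99 for the homologous recombination and Fanconi anaemia genes to 1.17 for the annexins, S100 proteins and membrane repair genes, and most lists hold members that rose and members that fell.

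Markers of other cell types moved in single genes. TIE1, an endothelial receptor, was at 0.682 and 1.03 CPM in isotonic medium and 61.1 and 108 CPM in 4% PEG (6.63 ± 0.49, adjusted p = 0.00172), and ESAM, an endothelial adhesion protein, at 1.104 and 1.71 CPM in isotonic medium and 71.9 and 105 CPM in 4% PEG (5.98 ± 0.42, adjusted p = 0.00171), while KDR, TEK, ERG, EMCN and CLDN5 stayed under the filter, at no more than 0.128 CPM. CDH5, a cadherin of endothelial junctions, went the other way, at 4.29 and 6.88 CPM in isotonic medium and 1.15 and 1.83 CPM in 4% PEG (-1.91 ± 0.47, adjusted p = 0.0339), but it did not pass with library totals alone (adjusted p = 0.0586), without isotonic replicate 2 (adjusted p = 0.0662) or without 4% PEG replicate 1 (adjusted p = 0.132). PECAM1 (0.96 ± 0.35, adjusted p = 0.0994) and VWF (-0.50 ± 0.64, adjusted p = 0.618) did not pass. CD79A, a B cell gene, was at 0.162 and 0.0854 CPM in isotonic medium and 8.32 and 11.9 CPM in 4% PEG (6.26 ± 0.57, adjusted p = 0.00196), and CD68 and CD3D changed by 2.37 and 2.56, with PTPRC at no count. CD14 did not pass (0.09 ± 0.76, adjusted p = 0.947). LYZ (lysozyme) was at 4248 and 3439 CPM in isotonic medium and 520.3 and 449 CPM in 4% PEG (-2.99 ± 0.27, adjusted p = 0.00193). PDGFRB, a receptor of pericytes and fibroblasts, was at 11.3 and 16.8 CPM in isotonic medium and 1.71 and 3.15 CPM in 4% PEG (-2.53 ± 0.47, adjusted p = 0.0137), and ACTA2 did not pass (0.39 ± 0.34, adjusted p = 0.452). The part of other cell types in these values was not tested.

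Per exon length, the order of the most abundant genes differed between media. TPM are counts divided by the joined length of a gene's exons over all its transcripts, scaled to a common total. ALB stood at 54388 and 53860.0 TPM in isotonic medium and 3593 and 3013 TPM in 4% PEG. MT-RNR2, the large ribosomal RNA of mitochondria, was at 14381 and 7698 TPM against 53140.2 and 41537 TPM and headed the list in 4% PEG. FTL was at 4999 and 10206 TPM against 20433 and 35495 TPM, and APOA2 at 7513 and 10145 TPM against 10257 and 15780.4 TPM. Of the 10 highest genes in 4% PEG, APOA2 and MT-RNR2 were also among the 10 highest in isotonic medium. MT-RNR1 rose (2.52 ± 0.26, adjusted p = 0.00247), while MT-ATP6 did not pass (1.85 ± 0.54, adjusted p = 0.0523).

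The change in 4% PEG on dishes was set against the change under a weight on transwells in the same line. The kind of compression, the surface and possibly the time and sequencing run differ together and cannot be told apart. The weight changed 1776 of the 14116 genes (12.6%), with 1004 rises (7.11%) and 772 falls (5.47%), in a fit of all 14 libraries. Of the 1695 genes that rose in 4% PEG, 382 (22.5%) also rose under the weight, which is 38% of the rises there. Of the 1532 that fell, 285 (18.6%) also fell, which is 36.9% of the falls there. The 4% PEG calls in these shares come from the dish libraries alone, so the shares cross fits of unequal power. In the fit of all 14 libraries, 3993 genes rose and 3799 fell in 4% PEG. The difference between the effects passed in 5467 genes (38.7%), 2707 of them higher (19.2%) and 2760 lower (19.6%) in 4% PEG. That fit estimates each gene's spread over all groups together. A chi-square between replicates, per degree of freedom, was 128 and 106 for the dish groups and 7.27 to 27.7 for the others. Errors and p-values of the difference are thus likely too small. For FLRT3 the error was 0.27, against 0.44 for the 4% PEG effect in the dish libraries alone. Among falls in 4% PEG, 1461 (95.4%) had a passed difference in the direction of a deeper fall, and among rises 1290 (76.1%) had one in the direction of a larger rise. The choice of genes by their change in 4% PEG favours both directions.

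Some genes changed in opposite directions. The difference passed for 43 genes that rose in 4% PEG and fell under the weight, 2.54% of the rises in 4% PEG. It passed for 145 that fell in 4% PEG and rose under the weight, 9.46% of the falls in 4% PEG. Among all tested genes, 5.47% fell and 7.11% rose under the weight. The 8 with the largest changes in both were chosen after their values were seen. FLRT3, a membrane protein of cell adhesion, was at 12.8 and 9.65 CPM in isotonic medium and 0.823 and 0.661 CPM in 4% PEG and on transwells at 4.48 and 4.24 CPM uncompressed and 26.3 and 25.5 CPM under the weight. Its difference was -6.48 ± 0.27 (adjusted p = 2.15e-07). SERPINA3, an acute phase protease inhibitor, was at 14.9 and 21.9 CPM in isotonic medium and 1.73 and 2.11 CPM in 4% PEG and on transwells at 9.83 and 8.51 CPM uncompressed and 49.02 and 49.6 CPM under the weight. Its difference was -5.68 ± 0.30 (adjusted p = 4.98e-07). SLC7A9, an amino acid transporter subunit, went the other way, at 2.01 and 3.12 CPM in isotonic medium and 13.1 and 16.3 CPM in 4% PEG against 6.51 and 6.08 CPM uncompressed and 1.55 and 1.43 CPM under the weight on transwells (4.602 ± 0.33, adjusted p = 3.87e-06). Among genes described above, UCA1 rose under both, by 3.63 ± 0.54 in 4% PEG and 3.77 ± 0.26 under the weight, and the difference did not pass (-0.16 ± 0.47, adjusted p = 0.831). EGFR rose under the weight by 0.91 ± 0.15 (adjusted p = 0.004), and its change in 4% PEG was higher (1.65 ± 0.21, adjusted p = 0.000194). IGF2 rose under the weight by 1.16 ± 0.15 (adjusted p = 0.000841) and fell in 4% PEG, with a difference of -5.21 ± 0.22 (adjusted p = 2.19e-07).

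**Figure D4:**
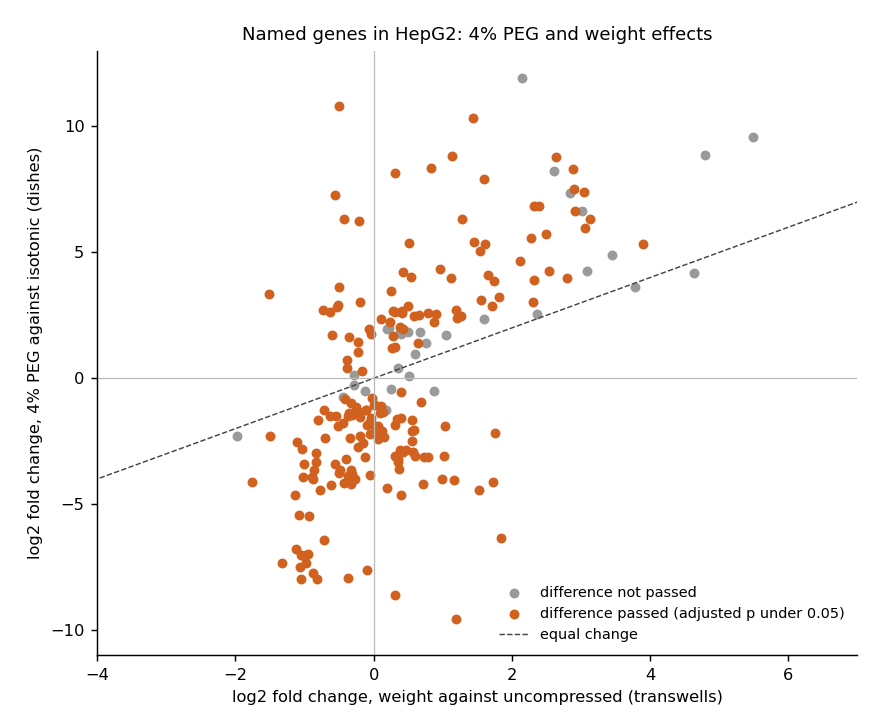
Log2 fold change in 4% PEG against isotonic medium on dishes (y axis) and under the weight against uncompressed on transwells (x axis) for the 223 genes that the naming rule selected, with a dashed line where both would be equal. The difference passed for 192 genes (orange) and not for 31 (grey), and the 4% PEG change was the larger in size for 218 of the 223, most of which the rule chose by that change.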

How the data were processed

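The labels give total RNA isolated with a column kit and paired-end sequencing on Illumina instruments. STAR, DESeq2 and the GRCh38 (hg38) build are named, without versions or roles, per the submitters' processing notes. Not given in the sources used here are the counting tool, its annotation and its use of strand, so overlapping genes may share reads. The authors deposited raw counts per gene, 1 column per library, neither pooled nor normalised. All gene IDs were found in GENCODE 29, which supplied positions, joined exon lengths and the GC content of the longest transcript. Rows with no symbol made up no more than 0.308% of any dish library.

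Counts of the 4 dish libraries were scaled by TMM and tested with edgeR 4.0.16 in R 4.3.3 (robust quasi-likelihood, Benjamini-Hochberg over the 14116 genes, 2 residual degrees of freedom). CPM are relative to the TMM-scaled totals. TPM were computed from the counts and the GENCODE lengths. The weight effect, and its difference from the 4% PEG effect, were tested in a fit of all 14 libraries, Hep3B included. Where a group had no count, a fold is a bound at 3 counts over that group. Where it had 1 to 3, the ratio carries an exact 95% interval.

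Named genes were the 12 largest rises and falls with a mean of at least 5 CPM and separate groups, from each of 47 lists as many as 4 members by smallest p (the highest by CPM where fewer than 2 passed), the 10 highest by TPM per medium, genes that appeared or vanished, and the cell type markers. Not all of them are printed. The members and lists were chosen with earlier results of these data known. Alternatives were other scalings, filters, sample sets, DESeq2 1.42.0, glmTreat, a replicate term, offsets that remove the trend with GC content, and leaving out each dish library. The model was tested on simulated data. These lacked the replicate difference along GC content that both media share, so the error rate under it was not tested.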

Additional observations from a re-analysis of the deposited data

Results flagged for a closer look

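The 4% PEG effect on dishes and the weight effect on transwells in HepG2 differed by an interaction test in 5467 genes. Among genes with a mean of at least 5 CPM in the dish libraries that changed in opposite directions, 8 had the largest changes in both. The interaction (4% PEG effect minus weight effect, log2) was -6.48 ± 0.27 for FLRT3, -5.098 ± 0.29 for CCDC201, -5.68 ± 0.30 for SERPINA3 and -6.94 ± 0.78 for RTN4RL2. It was -4.52 ± 0.50 for SLC28A1, a nucleoside transporter, -4.47 ± 0.41 for SEC14L6 and -8.17 ± 0.61 for TNNI2. In these 7 genes the level fell in 4% PEG and rose under the weight. SLC7A9 rose in 4% PEG and fell under the weight, with 4.602 ± 0.33. RTN4RL2 was at 7.66 and 26.7 CPM in isotonic medium and 0.323 and 1.07 CPM in 4% PEG, so its isotonic replicates were far apart. The kind of compression and the culture surface cannot be told apart in these differences. Their errors rest on a spread taken over all groups together and are likely too small for the dish libraries.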

How the results depend on the processing

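The count of 3227 changed genes became 5461 without a filter on low counts, 1316 with a minimum log2 fold change of 1, 7179 with GC offsets and 7792 in the fit of all 14 libraries. Replicate numbers are not said to pair the dish libraries, and with 2 numbers the data cannot show it. Replicate differences of the 2 media correlated at 0.795 across genes, and the replicate block gave 9765 genes, or 9881 with GC offsets as well. The block leaves fewer than the 2 residual degrees of freedom of the main fit, so these larger counts are not firmer. With the block, CDH5 kept its log2 fold change of -1.91 while its edgeR adjusted p moved from 0.0339 to 3.26e-13. Leaving out 1 dish library gave 2453 to 3296. Of the 3227 genes, 3226 passed in the same direction with GC offsets and 3227 in the fit of all 14 libraries. Both of these fits call many more genes, so this overlap is a weak check. The count of 5467 genes that differed from the weight effect became 1667 with a minimum log2 fold change of 1 and 3390 with the 8 HepG2 libraries only, 5834 with the replicate block, and 5848 to 6460 with 1 dish library left out. The cause of these shifts was not tested. With 1 library left out, the lone library is assumed to vary like the others. HNF4A, which did not pass, ran from -0.11 (without isotonic replicate 1) to 0.39 with 1 library left out. With 1 library left out, VWF, which did not pass, ran from -1.39 to 0.15 (0.15 without isotonic replicate 2 and 0.031 without 4% PEG replicate 1), and CD14, which did not pass, from -0.89 to 1.27 (-0.58 without isotonic replicate 1 and -0.89 without 4% PEG replicate 2). Of 181 genes named above that passed, 170 were tested under each of the 15 alternatives, and the others were removed by the filter of 5 CPM or are mitochondrially encoded. Under the alternatives in which each was tested, none of the 181 changed sign. In each of the 181 the ranges of the groups did not overlap, so a change of sign was hardly possible. With the minimum fold change 18 lost their call, and CDH5 among them also lost it with library totals and in 2 of the 4 fits with 1 library left out. Genes with few counts and libraries far apart had wide errors, as VWF with -0.50 ± 0.64.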
